A study of Sus scrofa with 3 samples.

Results

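The genes that encode the proteins of the cytosolic ribosome were followed in tooth germs of the miniature pig over 3 stages. A gene was a member if its symbol in the platform annotation began with RPL or RPS and a digit, or was RPLP0, RPLP1, RPLP2 or RPSA, while the RPS6K kinases were left out. Only probe sets with 1 symbol were taken, and a gene with several was shown by the probe set whose mean log2 signal was highest, called its bright probe set where others are given. The rule found 64 genes on 96 probe sets, of 6765 named genes and 23999 probe sets in all. It used no difference between stages. Of 80 listed proteins of the mammalian cytosolic ribosome, 58 were among the members, 34 of 47 in the large subunit and 24 of 33 in the small subunit. The other members were 5 paralogs (RPL7L1, RPL22L1, RPL26L1, RPL36AL and RPS27L) and RPS19BP1, whose symbol fits the rule although it encodes a binding partner of a ribosomal protein and not a ribosomal protein.

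The tissue was the last deciduous molar germ of the mandible with its dental lamina, from fetuses of Wuzhishan miniature pigs. The groups were the cap stage at E40, before a successional lamina was visible, the bell stage at E50, when it appeared, and the secretory stage at E60. In its methods the paper calls E50 early bell and E60 late bell instead. Germs of 1 litter were pooled at each stage and hybridised to 1 Affymetrix Porcine Genome Array, so there was no replicate, and every difference below is between the arrays of 3 pools and carries no p-value. Each signal is a MAS5 signal on the linear scale. Signals below the floor of an array, its 25th percentile (29.3 at E40, 17.2 at E50 and 21.8 at E60), were raised to that floor before folds were taken, and "over 2-fold" is the limit at which a gene was counted as higher or lower. Folds run from the earlier to the later stage, and where 3 signals are given they follow the order E40, E50 and E60. Signals of different probe sets depend on their probes and were not compared as RNA levels. Of the listed tooth germ markers 8 had a named probe set: the enamel genes AMBN, AMELX, ENAM and MMP20 and the dentin gene DSPP had their highest signals at E60 and MSX1, BMP4 and LEF1 were above the floor at every stage. The summed signal of 18 skeletal muscle genes was 56917.1, 1273.9 and 4060.8, and that of 6 genes of keratinised epithelium was 15059.4, 3729.1 and 4198.7. Every muscle gene was above the floor at E40, whereas 3 at E50 and 7 at E60 were under it. KRT1 was under the floor on all 3 arrays, and KRT10, at 1320.7, 1713.5 and 2275.5, was lowest at E40. Both sums were highest on the E40 array, and the part of these cells in the values below was not tested. In such pools fewer cells of a type and less RNA per cell cannot be told apart.

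A ribosome reads messenger RNA on its small subunit and joins amino acids on its large subunit. Its proteins hold the ribosomal RNA in shape and line the paths of the messenger and of the growing chain. Nearly all are needed in equal numbers, and their messengers share a pyrimidine tract at the 5′ end, the terminal oligopyrimidine start, through which growth signals set their translation. These genes are expressed in every tissue, which is why some of them serve as reference genes.

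Ribosomal protein genes differed little between the stages. Of the 64 members, 54 had a mean signal (the geometric mean of the 3 arrays) of at least 10000, and among these the highest of the 3 stages was 1.013 to 1.359 times the lowest, with a median of 1.077. RPL21 had the smallest range, with signals of 18340.9, 18108.4 and 18188.1. RPL6 stood at 17049.5, 16720.0 and 16842.8, RPL5 at 22056.2, 22550.7 and 22419.7, and RPS10 at 19023.2, 18920.9 and 19414.8. In these 4 genes no stage differed from another by over 1.026-fold. RPS18, a small subunit protein often used as a reference gene, had the highest signal of the whole table on all 3 arrays and was 1.086-fold apart between its highest and lowest stage. The signals of all members added up to 1107955.8, 1105786.4 and 1105093.7.

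**Figure D1:**
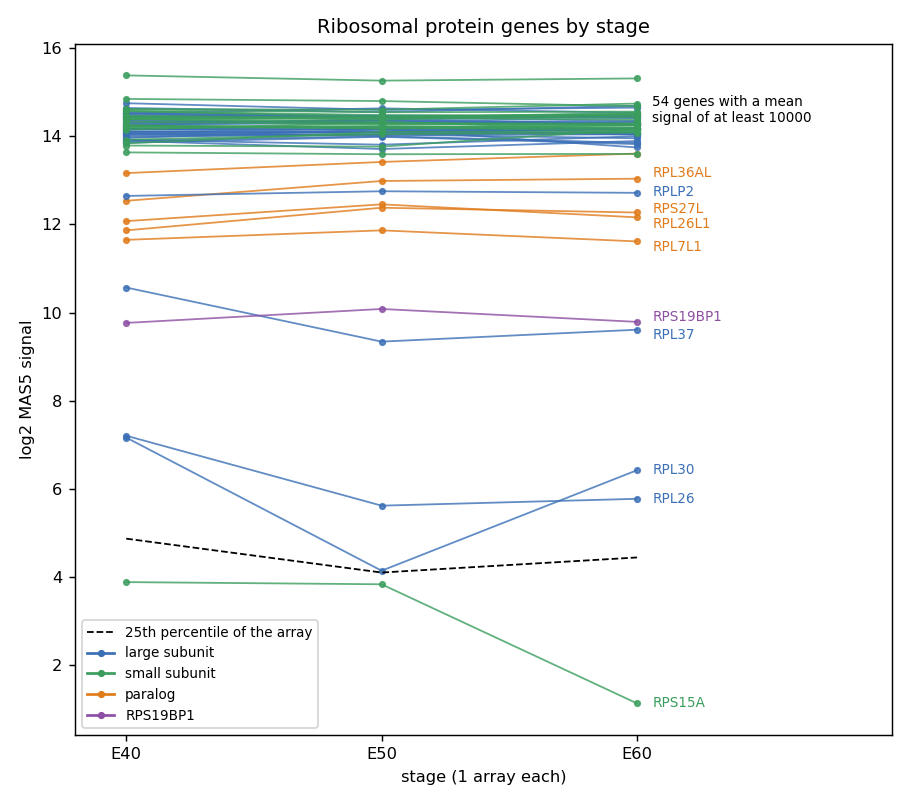
Log2 MAS5 signals (vertical axis) of the 64 ribosomal protein genes by stage (horizontal axis, a single array per stage). Lines join the signals of a gene and are coloured by subunit, and the floor is dashed. The 54 genes with a mean signal of at least 10000 run level between 9158.3 and 42541.3, and RPL26, RPL30, RPL37 and RPS15A lie far below them.

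The range over the 3 stages passed 2-fold in 3 of the 63 members that were above the floor on any array (4.76%), against 25.3% of all such probe sets. The median range was 1.084-fold for the members and 1.537-fold for all probe sets. Bright probe sets varied less in general. Among the brightest 10% of probe sets, a share of 7.17% passed 2-fold, with a median range of 1.299-fold. A total of 148 probe sets that belong to no member also had a mean signal of at least 10000, and their median range was 1.127-fold. Of these, 35.1% spanned less than 1.1-fold, and of the 54 members at that signal 66.7% did so. How close such signals lay to the upper limit of the scanner was not tested.

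**Figure D2:**
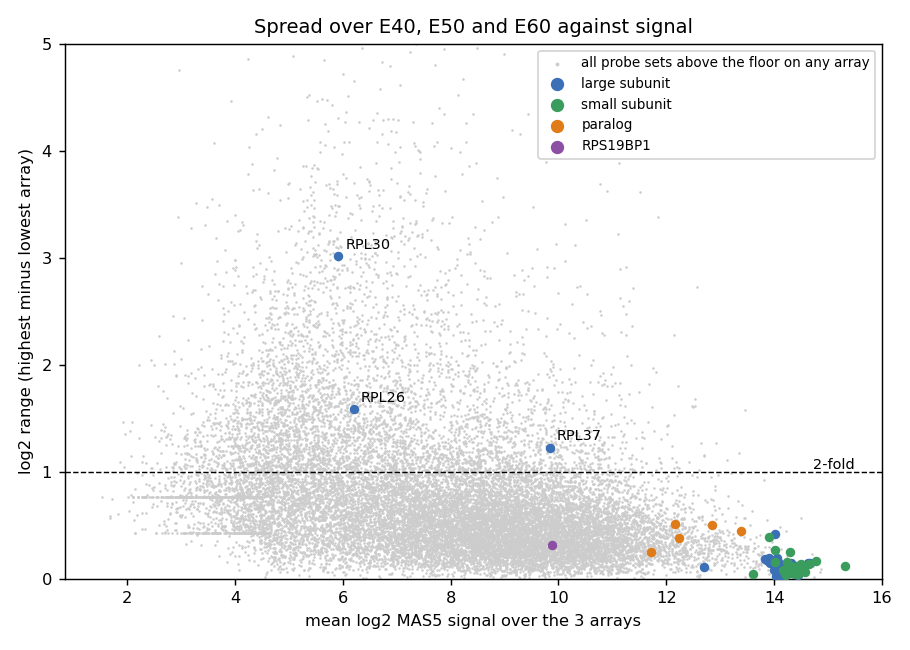
Log2 range over the 3 arrays (vertical axis, highest minus lowest) against mean log2 MAS5 signal (horizontal axis). Grey points are the 19635 probe sets above the floor on any array, of which 53 lie above the upper edge of the plot, and coloured points are ribosomal protein genes. Most members sit at the bright, narrow end, while RPL30, RPL26 and RPL37 lie above the dashed 2-fold line at lower signals.

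From E40 to E50, no member was higher by over 2-fold and 3 were lower, against a background of 18.2% of probe sets that passed 2-fold in either direction (2.6% higher and 15.6% lower). The median log2 fold of 63 members with a fold was -0.01, and the median of all probe sets was -0.11. Of the members, 76.2% differed by less than 10% between the arrays, and 18.6% of all probe sets did so. From E50 to E60, 1 member was higher by over 2-fold and none lower (background 8.25% in either direction, 6.37% higher and 1.88% lower). The median of the members was 0.01 and that of all probe sets 0.02. From E40 to E60, 1 member was lower and none higher (background 17.1% in either direction, 12.6% lower and 4.51% higher), with medians of -0.02 and -0.11. The 3 comparisons share arrays and are not independent of one another.

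These medians rest on the scale of the arrays. With the arrays at equal medians, the median member stood at 0.37 from E40 to E50 and 0.29 from E40 to E60, and all probe sets at 0.27 and 0.20. The arrays were also scaled to the median signal of 9 housekeeping genes outside the ribosome, called the housekeeping scale. On it the median member stood at 0.24 from E40 to E50 and -0.18 from E50 to E60. All probe sets stood at 0.14 and -0.15. ACTB had the middle signal of the 9 on every array, at 14887.6, 12513.3 and 14204.1, so this scale rests on ACTB alone. The median log2 folds of the 9 genes themselves were 0.02 and -0.05 in these pairs. Quantile normalization left the 3 medians of the members at 0.00, -0.03 and -0.02. The level line of the ribosomal protein genes is therefore a statement on the deposited scale, where the trimmed means of the arrays were 495.2, 494.8 and 494.7.

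Both subunits stayed level on the deposited scale. The median log2 fold of 23 small subunit genes was -0.05 from E40 to E50, 0.02 from E50 to E60 and -0.03 over the whole interval. That of 34 large subunit genes was -0.01, -0.01 and -0.02. No small subunit gene with a fold passed 1.5-fold in any comparison. The widest of them was RPS25, a protein of the small subunit head through which some viral messengers recruit the ribosome, at 14121.1, 13884.0 and 18255.1. Its signal was 1.315-fold higher at E60 than at E50. The next probe set of RPS25 stood at 714.4, 657.1 and 583.9 and was lowest where the bright one was highest. RPS9, which binds the small subunit RNA early in assembly, stood at 14630.9, 17513.6 and 17584.6, with E50 1.197-fold above E40. RPSA, the laminin receptor precursor, stood at 21658.8, 20481.9 and 18175.5, so E60 was 1.192-fold lower than E40.

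Other small subunit genes kept closer together. RPS6, the protein phosphorylated by S6 kinases in response to growth signals, stood at 21394.2, 19892.4 and 19720.6. RPS19, the gene most often mutated in Diamond-Blackfan anaemia, had signals of 29381.3, 28418.2 and 26203.0, and its widest difference was 1.121-fold. RPS27A, which encodes ubiquitin fused to a ribosomal protein, stood at 25064.5, 24788.3 and 27325.3. Its second probe set, at 1964.2, 2168.2 and 2777.2, was also highest at E60. FAU, which encodes a ubiquitin-like protein fused to a ribosomal protein, and RACK1, a scaffold protein of the small subunit, are ribosomal proteins that the symbol rule leaves out. FAU had signals of 19169.7, 19128.3 and 18433.0, and RACK1 of 21851.5, 21544.1 and 19336.5, and neither passed 1.2-fold between any stages.

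In the large subunit, the stalk recruits the factors that drive elongation. Its base protein RPLP0 had signals of 25487.9, 23910.1 and 26405.7. The acidic stalk proteins RPLP1 and RPLP2 stood at 16621.4, 16762.7 and 18544.0 and at 6399.2, 6885.2 and 6717.0. RPL12, at the foot of the stalk, stood at 19959.4, 20961.4 and 20070.2. The widest difference in the stalk was that of RPLP1, 1.116-fold. RPL5 and RPL11, which bring the 5S RNA into the ribosome and bind MDM2 when assembly fails, both differed by less than 10%. RPL11 stood at 23433.0, 25337.4 and 23621.5. RPL13A, which is also part of an interferon-dependent translational block and a common reference gene, stood at 23064.0, 22010.8 and 21882.7. RPL17, at the exit of the peptide tunnel, had signals of 27472.0, 24762.4 and 25620.8. RPL38, which is known for its part in the translation of Hox messengers in the mouse, differed most among the bright members of the large subunit. It stood at 18298.4, 18245.3 and 13700.5, so E60 lay 1.332-fold under E50. Its second probe set, at 1481.4, 1964.4 and 1323.5, also had its lowest signal at E60.

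By structural group, 8 genes of the peptide exit tunnel and its rim had a median log2 fold of -0.11 from E40 to E50, with 2 genes lower by over 2-fold, RPL26 and RPL37, against 15.6% of all probe sets. At equal medians and on the housekeeping scale only RPL26 was lower by over 2-fold. The 3 measured genes of messenger entry and decoding (RPS2, RPS15 and RPS23) and the 3 of the platform and messenger exit (RPSA, RPS26 and RPS28) had medians of -0.01 and 0.01, and none passed 2-fold. Of 8 measured genes of the Diamond-Blackfan list 1, RPL26, passed 2-fold, lower at both later stages than at E40, where 15.6% (E50) and 12.6% (E60) of all probe sets were lower. RPL26 rests on 1 probe set with a mean signal of 73.6. Of all probe sets with a mean signal under 100, 36.1% (E50) and 25.5% (E60) were lower by over 2-fold. With a floor at the 50th percentile RPL26 did not pass 2-fold.

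**Figure D3:**
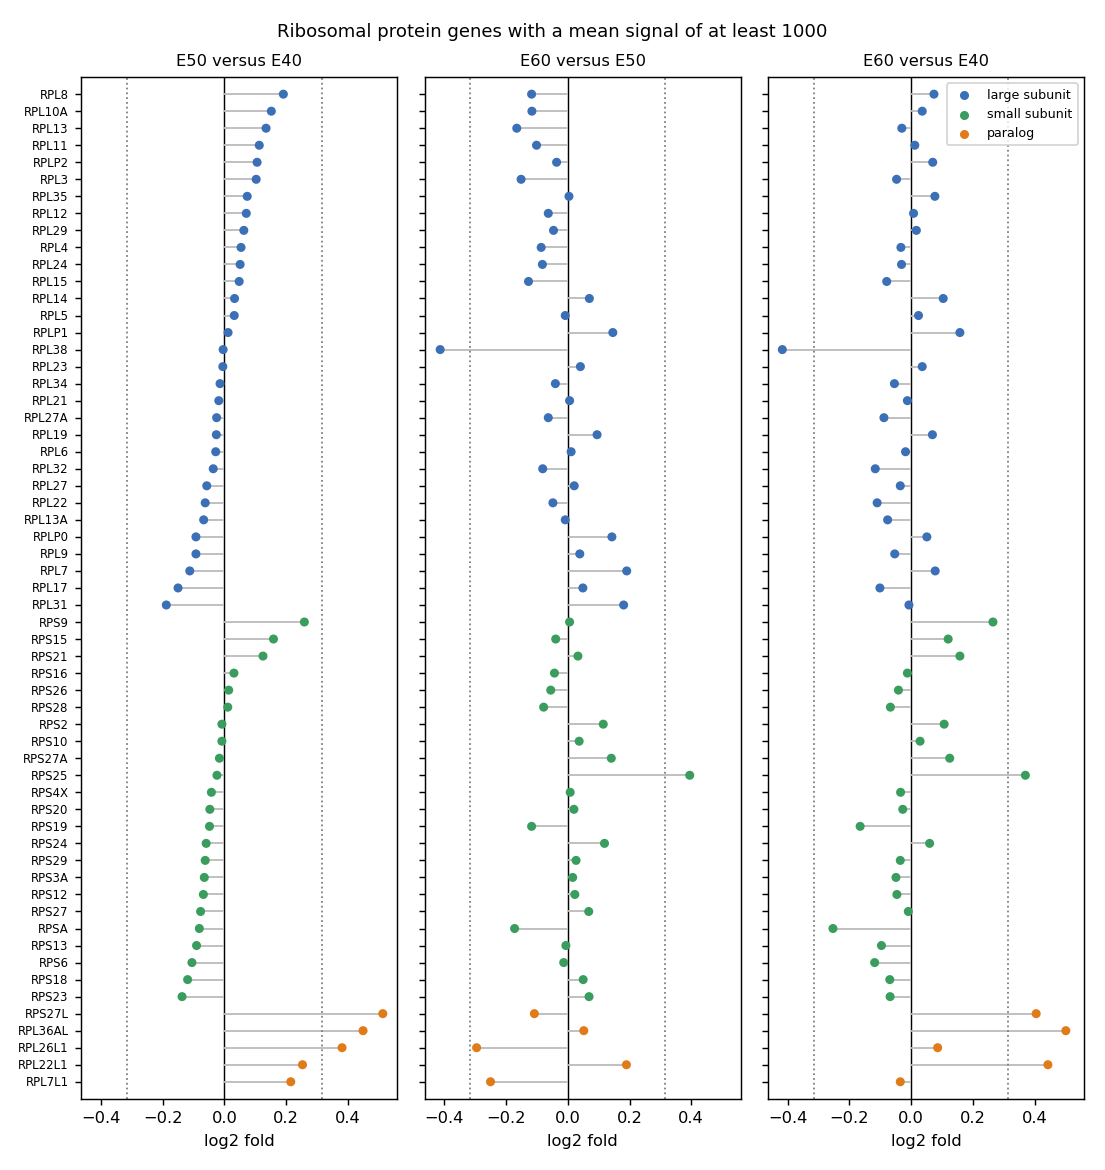
Log2 folds (horizontal axes) of the 59 ribosomal protein genes with a mean signal of at least 1000 (vertical axis) in the 3 pairs of stages, from 1 array per stage. Points are coloured by subunit, and the dotted lines mark the largest gap between bright probe sets of the same gene (0.32 on the log2 scale). The 5 paralogs all lie to the right of 0 from E40 to E50. From E50 to E60 only RPL38 and RPS25 lie beyond the dotted lines. From E40 to E60 RPL22L1, RPL36AL and RPS27L do so as well.

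From E40 to E50 the log2 folds of all 5 paralogs were above 0, between 0.22 and 0.51 with a median of 0.38, and none passed 1.5-fold. RPS27L, a paralog of RPS27 that p53 induces, stood at 3723.4, 5314.5 and 4931.1. Its only probe set carries a suffix that marks probes other transcripts may share. Whether it also reads RPS27 was not tested. The RPS27L signal at E50 was 1.427 times that of E40, and the bright probe set of RPS27 stood at 19505.8, 18487.0 and 19380.6. The second probe set of RPS27, at 1331.5, 1833.1 and 1889.0, was 1.377 times its E40 signal at E50, so the probe sets of RPS27 did not follow the same course. RPL36AL, a near copy of RPL36A, had signals of 5926.7, 8090.6 and 8388.0 and ended at 1.415 times its E40 signal. RPL22L1, which takes the place of RPL22 in some ribosomes, was higher at each stage than at the one before, at 9158.3, 10912.9 and 12449.8. RPL22 stood at 23516.2, 22523.5 and 21793.2.

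RPL26L1, a close copy of RPL26, stood at 4305.6, 5605.4 and 4569.9 and was highest at E50. RPL7L1, a nucleolar protein of ribosome assembly, was also highest at E50, at 3208.2, 3724.0 and 3130.7, and so was RPS19BP1 at 869.5, 1082.8 and 883.9. After quantile normalization all 5 paralogs were again above 0 from E40 to E50, with a median of 0.19. The medians were 0.63 on the housekeeping scale and 0.77 at equal medians. Those 2 scalings raise all folds of that pair by the same amount, so they could not test the direction. On both, all 23 small subunit genes with a fold were above 0 as well. Every paralog but RPL22L1 had a mean signal of 1000 to 10000, and in all 3760 probe sets of that class the median from E40 to E50 was 0.15 and the upper quartile 0.37. RPL7L1, at 0.22, lay under that quartile, and RPL26L1, RPL36AL and RPS27L lay above it. From E40 to E60 the paralogs ranged from -0.04 (RPL7L1) to 0.50 (RPL36AL). Each paralog had 1 probe set.

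Precision could be judged only from genes with several probe sets. Such probe sets share the pools and the arrays, so their gaps hold no error between litters or hybridisations. In 3 members more than 1 probe set had a mean signal of at least 10000. The probe sets of RPL27 stood at 21034.8, 20225.6 and 20524.2 and at 14844.3, 17749.5 and 14673.9. Their log2 folds from E40 to E50 lay 0.32 apart, the largest gap of this kind. RPS18 had bright probe sets at 42541.3, 39166.6 and 40551.5, at 18045.5, 17654.2 and 17895.7, and at 15318.6, 17056.7 and 16065.6, which did not keep the same order of stages. RPL31 had probe sets at 15233.3, 13372.0 and 15164.0 and at 15244.6, 12836.0 and 14732.7, both lowest at E50. The gap of 1.244-fold, the widest of any pair, was exceeded by 7 members from E40 to E50 (RPL26, RPL26L1, RPL30, RPL36AL, RPL37, RPS19BP1 and RPS27L), by 3 from E50 to E60 (RPL30, RPL38 and RPS25) and by 8 from E40 to E60 (RPL22L1, RPL26, RPL30, RPL36AL, RPL37, RPL38, RPS25 and RPS27L). Between E40 and E60 the bright probe sets of a gene lay closer, at most 1.1-fold apart, and 13 members exceeded that gap, the 8 named and RPLP1, RPS9, RPS19, RPS21 and RPSA. All 7 members past the gap from E40 to E50 had a mean signal under 10000, where this gap was not measured. Over all 28 further probe sets with a log2 fold in that pair, the SD of the difference from the brightest probe set was 0.64. Whether those 7 exceed the imprecision at their own signal was not tested. The error between pools was not measured, so no member named here is shown to exceed it.

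A total of 4 ribosomal protein genes lay far below the rest, each on a single probe set: RPL26, RPL30, RPL37 and RPS15A. RPL30, a large subunit protein that in yeast also controls its own splicing, had signals of 143.5, 17.7 and 85.9. It was 8.103-fold lower at E50 than at E40 and from there to E60 4.849-fold higher, but its E50 signal lay just above the floor of 17.2. With the E40 floor of 29.3 applied to all arrays, these folds were 4.902 and 2.934. RPL26, which sits at the tunnel exit and also binds the messenger of p53, stood at 147.7, 49.2 and 54.8. Against E40 it was 3.0-fold lower at E50 and 2.695-fold lower at E60. RPL37 stood at 1516.8, 648.1 and 781.5, which was 2.34-fold lower than E40 at E50 and 1.941-fold lower at E60. Its log2 fold from E40 to E50 was -1.23 as deposited, -0.84 at equal medians and -0.98 on the housekeeping scale, and under the latter 2 scalings it did not pass 2-fold. RPS15A was under the floor on every array (14.8, 14.3 and 2.2) and has no fold. The other 3, all highest at E40, were the only members past 2-fold in any pair on the deposited scale. Without the 5 members whose mean signal was under 1000, no member passed 2-fold in any of the 3 pairs.

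Some dim probe sets of other ribosomal protein genes were likewise lowest at E50. Of the 64 members 24 had further probe sets, 32 in all, and 24 of these had a mean signal under 1000. From E40 to E50, 5 of the 28 further probe sets with a fold were lower by over 2-fold, against 15.6% of all probe sets. In these 5 genes the bright probe set stayed within 10%. For RPL34 the bright probe set stood at 17547.0, 17380.2 and 16907.8 and the dim one at 112.0, 37.6 and 55.3. For RPS28 the signals were 18667.4, 18808.0 and 17820.8 on the bright probe set and 146.3, 42.9 and 73.6 on a dim one, whereas another dim probe set of the gene, at 157.7, 183.5 and 153.1, was highest at E50. RPL13A, RPL27 and RPLP0 had such dim probe sets too, at 92.0, 36.5 and 68.9, at 90.9, 35.5 and 40.4, and at 381.7, 183.7 and 250.1. RPL35 went the other way on its dim probe set, at 457.7, 714.0 and 539.2.

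Low signals at E50 were common among dim probe sets in general. In all probe sets with a mean signal under 100, 36.1% of those with a fold passed 2-fold downwards from E40 to E50 (median log2 fold -0.71). The share was 9.52% from 100 to 1000, 2.05% from 1000 to 10000 and 0% of 206 probe sets from 10000. Among the probe sets of ribosomal protein genes 6 of 9 with a fold were lower under 100, 2 of 15 from 100 to 1000, and none of 9 and none of 58 in the brighter classes. RPL26, RPL30 and RPL37 had no named probe set with a mean signal of at least 10000.

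**Figure D4:**
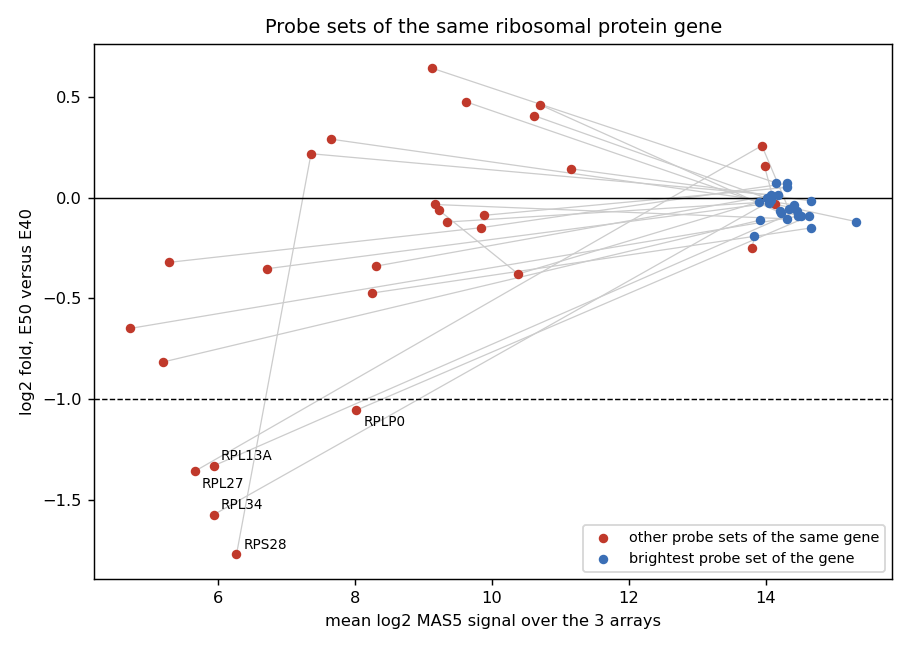
Log2 fold from E40 to E50 (vertical axis) against mean log2 MAS5 signal (horizontal axis) for the probe sets with a fold of the 24 ribosomal protein genes with several probe sets. Grey lines join the probe sets of a gene, blue points are the brightest ones and red points the others. The blue points lie close to 0, and 5 red points at lower signals lie under the dashed 2-fold line.

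Genes that build or regulate ribosomes were compared on the same probe set rule. Of 44 listed factors of ribosome assembly 35 were measured. Their median log2 fold was 0.03 from E40 to E50 and -0.21 from E50 to E60, where 27 of 35 were below 0 and 1 was lower by over 2-fold. Of all 18593 probe sets with a fold in that pair 8915 were below 0 and 1.88% were lower by over 2-fold. This was NOB1, the nuclease that completes the small subunit RNA, at 245.3, 283.7 and 139.2. After quantile normalization the median of the 35 factors from E50 to E60 was -0.25. It was -0.28 at equal medians and -0.39 on the housekeeping scale. Those 2 scalings lower all folds of that pair by the same amount, so they could not test the direction. From E40 to E60 the median of the factors was -0.09 as deposited and 0.22 at equal medians, so that direction turned with the scaling. Of 20 listed genes of growth signalling 8 were measured. MYC, a transcription factor that drives ribosome production, stood at 957.9, 597.5 and 426.2 and was lower by over 2-fold at E60 than at E40, as was TSC2, a brake on mTOR, at 416.5, 359.3 and 191.1. Of all probe sets, 12.6% were lower by over 2-fold in that pair. At equal medians, which raises the folds of that pair, neither MYC nor TSC2 passed 2-fold. Among 18 measured genes of 22 listed with the same kind of pyrimidine start, none passed 1.5-fold. The elongation factor gene EEF1B2 stood at 20422.6, 20558.3 and 20707.0, and EIF3E, an initiation factor subunit, at 10229.7, 14487.8 and 11483.4. The median log2 fold of the 18 genes was 0.07 from E40 to E50 and -0.13 from E50 to E60.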

How the data were processed

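The authors hybridised RNA pooled within 1 litter per stage to 1 array per stage, computed MAS5 signals and deposited them as log2 values, which were taken as they are. After 124 array controls were removed from 24123 probe sets, 10069 carried 1 symbol in the platform annotation, 198 several and 13732 none. Folds, medians and counts were computed in Python 3.11.15 with numpy 2.4.6 and pandas 2.3.3, and the functions were tested on simulated data. Depth does not apply to arrays, and with 1 array per stage no error over samples exists, so no test was made.

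The members and the gene lists were chosen with earlier results of these data known. Genes were named if they passed 2-fold or lay over 1.5 interquartile ranges outside the quartiles of the members in any pair, were among the 3 largest rises or falls of a pair, the 4 brightest, the 4 dimmest or the 4 with the smallest range, or belonged to the stalk, the 5S particle, the paralogs or a short list of genes with known roles, and in other lists if they passed 2-fold. RPL22, RPL31, RPL34, RPL35, RPL27, RPS27, RPS28, RPS9, RPS21, KRT10, EEF1B2 and EIF3E were chosen after their values were seen. Sequences were not used here, and genome positions were not used because the array files name no genome build. Of the listed ribosomal proteins and paralogs, 25 had no probe set with a single symbol and are not analysed here. The erythroid list (4 measured genes) was summed and gave 2367.2 at E40, 1987.1 at E50 and 2627.7 at E60.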

Additional observations from a re-analysis of the deposited data

How the results depend on the processing

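In all 9 alternatives were planned, and 2 were added with the data in view (1 floor for all arrays, and only members with a mean signal of at least 1000). A median was taken as kept within 0.1 on the log2 scale and a count within 1.5 times. At equal medians the members' median log2 fold was 0.373 from E40 to E50 and 0.292 from E40 to E60, and their median log2 range 0.416 in place of 0.116. On the housekeeping scale the median was 0.237 from E40 to E50 and -0.177 from E50 to E60, and the median range 0.264. Without a floor RPS15A was added to the lower genes, which made 1 from E50 to E60 and 2 from E40 to E60. With a floor at the 50th percentile 1 gene (RPL37) was lower from E40 to E50, 0 were higher from E50 to E60, 0 were lower from E40 to E60, and 1 had a range over 2-fold. Averaging the probe sets of a gene made 1 gene, RPL9, higher from E40 to E60. Its dimmest probe set stood at 2.4, 12.2 and 24.6, under the floor at E40 and E50. Its other probe sets had log2 folds of -0.05 and -0.14 in that pair. A 1.5-fold threshold gave 3 lower genes from E40 to E60. With only members of at least 1000 in mean signal, 0 were lower from E40 to E50, 0 higher from E50 to E60, 0 lower from E40 to E60 and 0 had a range over 2-fold. The cause was not tested. Of the values recomputed, 98 were kept and 18 moved, and quantile normalization, the common floor, probe sets without a shared suffix and the subunit lists alone moved none. No paired analysis was possible because each stage has 1 array, and no replicate could be left out.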

Other observations

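The mitochondrial ribosome translates the few messengers of the mitochondrial genome. Of 77 genes listed for it 57 were measured, and whether each product is part of that ribosome was not checked. From E40 to E50, 51 of them were above 0 and 6 below, with a median log2 fold of 0.34. Of all 18379 probe sets with a fold in that pair 7851 were above 0. After quantile normalization 50 of the 57 genes were above 0 and their median was 0.345. It was 0.73 at equal medians and 0.59 on the housekeeping scale, which raise all folds of that pair alike. None of the 57 passed 2-fold in that pair on the deposited scale. MRPS36, with signals of 82.1, 152.1 and 234.7 in the order of the stages, was higher by over 2-fold at E60 than at E40. MRPL44, at 1456.5, 1084.4 and 720.2, was lower. Of all probe sets, 4.51% were higher and 12.6% lower by over 2-fold in that pair. MRPL44 lay close to the limit, at a log2 fold of -1.02, and did not pass it at equal medians or on the housekeeping scale. All 57 had a mean signal of 100 to 10000, where the median of all probe sets from E40 to E50 was -0.09 from 100 to 1000 and 0.15 from 1000 to 10000. From E50 to E60 the median of the 57 genes was -0.14. In that pair 38 of them were below 0, and 8915 of all 18593 probe sets with a fold.

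Of 12 listed genes of proliferation 9 were measured. From E50 to E60, 8915 of all 18593 probe sets with a fold were below 0, and so were all 9 of these genes. Their median log2 fold was -0.35 as deposited and -0.36 after quantile normalization. It was -0.42 at equal medians and -0.53 on the housekeeping scale, which lower all folds of that pair alike. None of the 9 passed 2-fold on the deposited scale. TOP2A, a topoisomerase of dividing cells and named after its values were seen, stood at 4128.9, 4799.3 and 3413.4. Among 9 measured housekeeping genes of 11 listed, YWHAZ, a signalling adaptor, passed 2-fold, lower at E60 (1091.6) than at E50 (2447.1), and was at 1606.9 at E40. Of all probe sets, 1.88% were lower by over 2-fold from E50 to E60.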
